A study of Mus musculus with 262 samples.

Results

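The 8 genes C1qa, C1qb, C1qc, Csf1r, Cybb, Adgre1, Il1b and Lyz2, a set of complement and myeloid genes of tissue macrophages, were taken by symbol from each deposited table of a mouse kidney series. All 8 were present among the 47069 genes of the TPM tables and the 24111 genes of the count table, where Adgre1 is listed under its older name, Emr1. The series holds 262 samples of 2-month-old male mice, with no drug treatment named. C57BL/6 mice gave the single cells, captured on a microfluidic chip after sorting. The authors named 87 of them type A intercalated, 23 type B intercalated, 74 principal, 19 proximal tubule and 32 non-epithelial cells. C57BL/6 mice also gave 4 bulk samples of sorted cells, 2 taken with an antibody to the Kit receptor (c-Kit) and 2 with DBA, a lectin that binds collecting duct cells. Single microdissected tubules of the same strain comprised 11 CCD (collecting ducts of the cortex) and 8 cTAL (thick ascending limbs of the cortex). A strain named Atp6v1b1GFP gave 2 GFP-positive and 2 GFP-negative sorted samples. The labels name no animal for a cell or sample, so p-values measure the spread between samples, which may be technical.

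The kidney holds resident macrophages and dendritic cells between its tubules. C1q is the recognition part of the classical complement pathway, and its subunit chains come from C1qa, C1qb and C1qc, which macrophages transcribe together. Macrophages depend on the receptor encoded by Csf1r, carry the surface protein F4/80 encoded by Adgre1, and make superoxide through the oxidase subunit encoded by Cybb. Lyz2 encodes the lysozyme of myeloid cells, and Il1b encodes interleukin-1 beta, a cytokine that activated macrophages and monocytes release.

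In the GRCm38 build (GENCODE M21), the C1q genes lie side by side on the minus strand of chromosome 4, from 136880129 to 136898803, a stretch of 18675 bases. C1qb spans 136880129 to 136886187, C1qc 136889804 to 136893065 and C1qa 136895917 to 136898803. Cybb lies on chromosome X (9435252 to 9487771), Adgre1 on chromosome 17 (57358691 to 57483527) and Il1b on chromosome 2 (129364570 to 129371139). Lyz2 lies on chromosome 10 (117277331 to 117282321), beside its near-identical copy Lyz1 (117287797 to 117292868). Reads of these lysozyme genes can be assigned to the wrong copy, so Lyz2 levels are uncertain to that extent.

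The bases before the start sites of C1qb and C1qc are shown because these neighbours differed by like amounts in both comparisons of sorted samples, and those of Il1b because its level did not follow theirs from cell to cell. They come from RefSeq (build GRCm38.p6), run 5′ to 3′ on the minus strand, and stop where a transcript begins in RefSeq or GENCODE. Capitals mark GAGGAA, the core letters of PU.1 sites, on either strand. PU.1 is a transcription factor of myeloid cells, encoded by Spi1.
C1qb, chr4:136886201-136886450: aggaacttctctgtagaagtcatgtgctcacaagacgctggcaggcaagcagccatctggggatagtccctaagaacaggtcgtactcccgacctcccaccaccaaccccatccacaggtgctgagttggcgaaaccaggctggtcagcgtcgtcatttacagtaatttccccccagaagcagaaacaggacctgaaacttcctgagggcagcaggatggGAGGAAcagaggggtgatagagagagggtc
C1qc, chr4:136893066-136893164: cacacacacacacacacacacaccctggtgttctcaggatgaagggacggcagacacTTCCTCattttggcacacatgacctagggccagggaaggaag
Il1b, chr2:129371140-129371389: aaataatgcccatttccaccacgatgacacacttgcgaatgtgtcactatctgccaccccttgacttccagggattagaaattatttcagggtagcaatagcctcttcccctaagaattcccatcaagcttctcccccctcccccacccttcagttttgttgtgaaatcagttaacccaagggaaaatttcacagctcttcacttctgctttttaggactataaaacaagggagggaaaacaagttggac

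Of the 250 bases before the RefSeq start, C1qb held 1 match, beginning at base -30, and C1qc held 1, beginning at base -193 and reading TTCCTC on the strand shown. The windows of Il1b, Lyz2 and Cybb held none. GAGGAA on either strand occurs in 23.3% of the 32851 promoter windows of that length in RefSeq, so such a match is common and describes letters only. A C/EBP motif (TTGCNNAA, in 9.56% of windows) was found in none of these 5 promoters, and an AP-1 motif (TGANTCA, in 6.75%) only in that of Cybb, at base -139.

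All 8 genes had their highest mean TPM in the non-epithelial cells, and so did the medians and the shares of cells at any level above 0, at 1 TPM and at 10 TPM. TPM values are transcript abundances scaled by gene length to a fixed total in each cell, so levels of different genes can be set side by side. The types are the authors' own and may rest on these same values, and each type is 1 sample without named animals, so the values are a description without a test. As a background, 22.0% of the 15403 genes compared had their highest mean in non-epithelial cells.

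The C1q chains were not equally abundant in these cells. C1qb averaged 4477 TPM over the 32 non-epithelial cells (lowest 0.30, median 3835, highest 11314 TPM), against 741 TPM for C1qa (lowest 0, median 457, highest 4100 TPM). C1qc averaged 471 TPM, with a lowest value of 0, a median of 212 and a highest of 2442 TPM. The chains were closer in the bulk DBA and c-Kit samples, where C1qb was 1.98 to 2.53 times C1qa and 1.49 to 1.70 times C1qc. At 10 TPM or more, C1qb was detected in 29 of 32 cells (90.6%, exact 95% interval 75.0% to 98.0%), C1qa in 28 (87.5%, 71.0% to 96.5%) and C1qc in 24 (75.0%, 56.6% to 88.5%). The intervals cover counting error over cells only. Set against the epithelial type with the next-highest mean, C1qb was 277 times higher, C1qc 81.7 times and C1qa 37.7 times.

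The macrophage receptors were lower and more uneven. Csf1r averaged 113 TPM with a median of 24.1 and a highest value of 723 TPM, and 18 of 32 cells had 10 TPM or more. Adgre1 averaged 249 TPM, but its median was 13.5 TPM and its highest value 1953 TPM, again with 18 cells at 10 TPM. For both genes some non-epithelial cells were at 0 and others far above the median, as the plot of levels by cell type shows. Adgre1 was 38.9 times higher than in the next type, while Csf1r was only 1.78 times higher.

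The effector genes Cybb, Il1b and Lyz2 were broadly detected. Cybb averaged 440 TPM (lowest 0.32, median 301, highest 1635 TPM) and reached 10 TPM in 29 cells. Il1b averaged 1148 TPM (lowest 0, median 563, highest 3707 TPM) and reached 10 TPM in 26 cells. Lyz2 had the widest range of the 8, from 0.18 to 33030 TPM, with a mean of 3035 and a median of 616 TPM, and 24 cells reached 10 TPM. The ratio to the next type was 23.8 for Cybb, 194 for Il1b and 281 for Lyz2. With the others, 7 of the 8 genes were at least 10 times above the next type, a step that 6.51% of all genes compared reached.

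**Figure D1:**
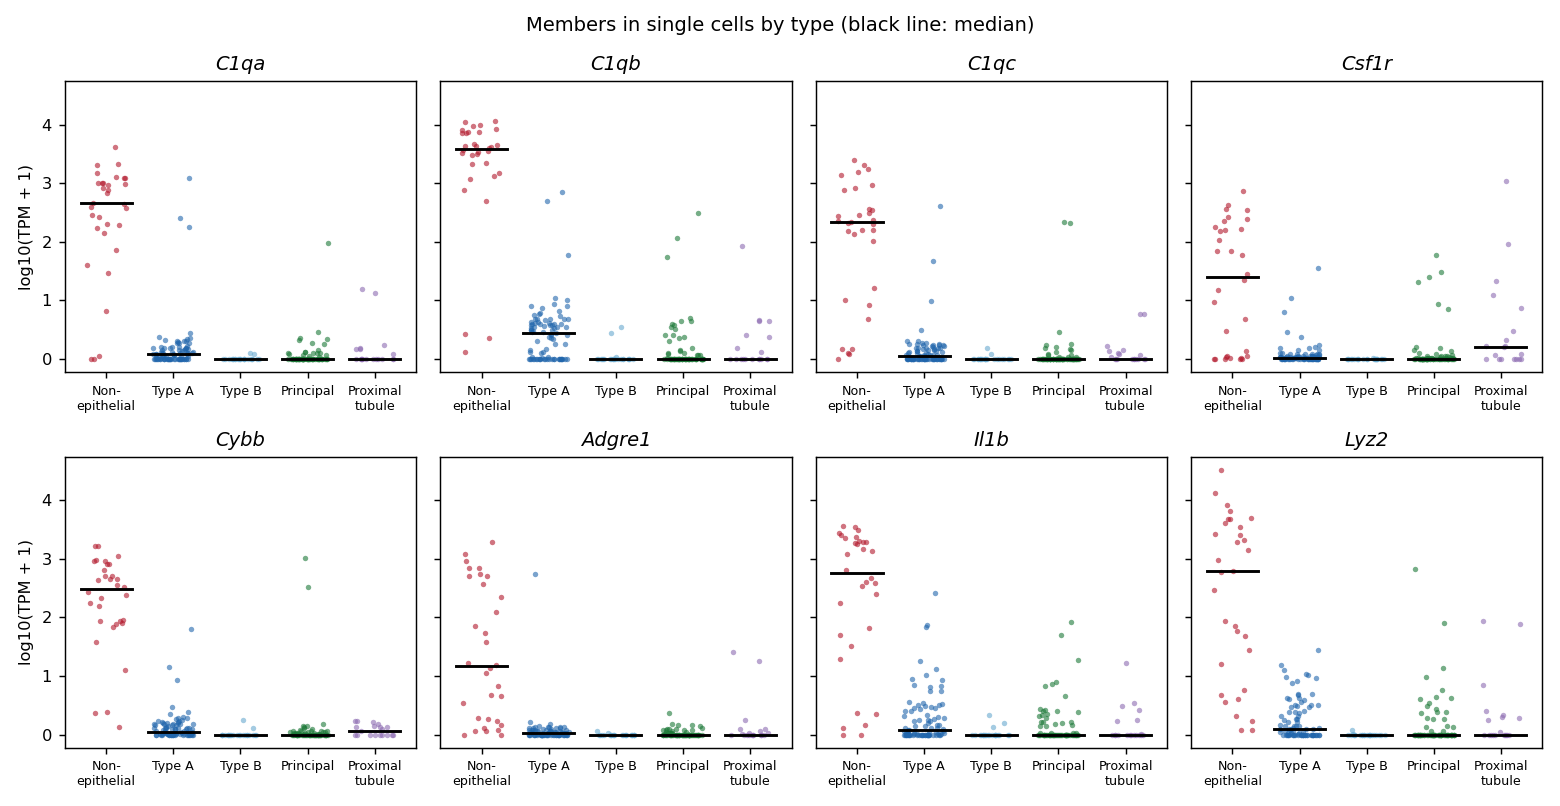
Each panel shows 1 gene, each point 1 single cell, the vertical axis log10(TPM + 1) and the black line the median of the authors' cell type. Non-epithelial medians lie between 13.5 TPM (Adgre1) and 3835 TPM (C1qb), while in Csf1r 1 proximal tubule cell (1073 TPM) is above each non-epithelial cell.

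The narrow margin of Csf1r came from 1 cell. The proximal tubule cells averaged 63.5 TPM, and their cell 16 (numbers are those of the table's columns) held 1073 TPM, the highest Csf1r value of all cells. That cell had 0 TPM of C1qa, 1.38 TPM of C1qb, 0.07 TPM of Adgre1 and 0.21 TPM of the leukocyte gene Ptprc. Csf1r also reached 10 TPM in 3 other proximal tubule cells, 4 principal cells and 2 type A cells. In 9 of these 10 epithelial cells none of the other 7 genes reached 10 TPM, so Csf1r was the member most often found alone. For comparison, 5 of 8 epithelial cells with C1qb at that level, 5 of 9 with Il1b, 3 of 6 with C1qa and 0 of 3 with Adgre1 held that gene alone. The ratios of other members to the next type rest on few cells too. Adgre1 averaged 6.41 TPM in type A cells, where only cell 42 (549 TPM) reached 1 TPM. Cybb averaged 18.5 TPM in principal cells, where only 2 reached 1 TPM (1027 and 334 TPM). Lyz2 averaged 10.8 TPM in principal cells, 1 of which held 670 TPM.

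Co-detection separated the types. With 10 TPM as the level of detection, 31 of 32 non-epithelial cells held 2 or more of the 8 genes, 29 held 4 or more, 22 held 6 or more and 9 held all 8, with a median of 7. Of the 203 epithelial cells, 36 held at least 1, 10 held at least 2, 2 held 4 and none held 6. At 1 TPM 28 non-epithelial cells held 6 or more and 11 held all 8. In the epithelial cells the counts grew to 103 with at least 1, 68 with at least 2, 13 with at least 4 and 1 with 6.

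**Figure D2:**
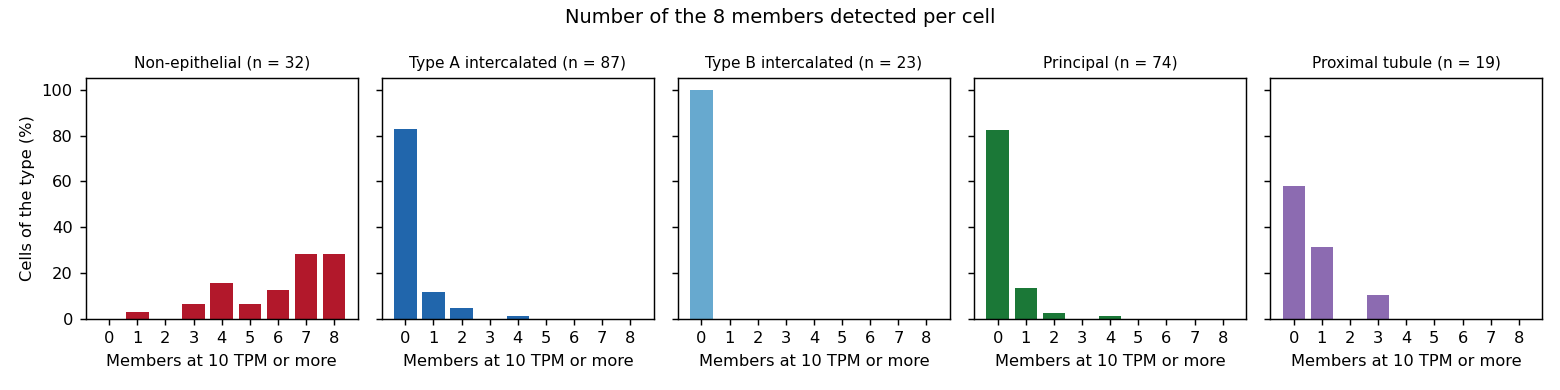
Each panel is 1 cell type, the horizontal axis the number of the 8 genes at 10 TPM or more in a cell and the vertical axis the percentage of cells of that type. The non-epithelial cells have a median of 7, and all 23 type B cells are at 0.

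The C1q trio was nested in the non-epithelial cells. At 10 TPM, 24 cells held all 3 chains, 4 held C1qa and C1qb without C1qc, 1 held C1qb alone and 3 held none. No cell held C1qa or C1qc without C1qb. In the epithelial cells, at the same level, no cell held all 3, 1 held C1qa with C1qc (type A cell 41, with 1245 TPM of C1qa, 45.9 TPM of C1qc and 0 TPM of C1qb), 16 held 1 chain and 186 held none. At this level 0 epithelial cells paired C1qa with C1qb, the pair found in 28 of 32 non-epithelial cells, but the count depended on the level of detection. At 1 TPM 14 of the 18 epithelial cells with C1qa also held C1qb, among them 10 of 11 type A and 4 of 5 principal cells, and at any level above 0 so did 77 of 82.

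Levels of the genes went together only in part across the 32 non-epithelial cells, whose values share a fixed total per cell. Spearman's rho was highest between C1qb and Adgre1 (0.67), followed by C1qa with C1qb (0.59) and C1qa with Adgre1 (0.54). C1qc had a rho of 0.42 with C1qa and 0.41 with C1qb. Lyz2 went most with Csf1r (0.49) and had a rho of 0.06 with C1qb. Il1b had values between -0.24 (with C1qb) and 0.10 (with Csf1r) with the other 7 genes, so it followed none of them.

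Other genes were ranked by their rho with these profiles over the same 32 cells, among 3994 genes at 1 TPM in at least 8 cells. For the summed C1q chains the closest were Gm26473 (0.64), 4833421G17Rik (0.63) and Cd74 (0.61), the invariant chain of class II antigen presentation. For Csf1r they were Clec4a1 (0.62), Cx3cr1 (0.60), the fractalkine receptor, and BC026585 (0.51). For Adgre1 they were Tmem176a (0.59), C5ar1 (0.58), the receptor of complement C5a, and Fcer1g (0.56), a signalling chain of Fc receptors. For Lyz2 they were Apoe (0.56), which encodes apolipoprotein E, Apobec1 (0.55) and Vcam1 (0.55). For Cybb they were Gsta3 (0.58), St3gal6 (0.57) and BC026585 (0.56). The closest to Il1b were Tmem14c (0.60), Synj1 (0.60) and Ndufb6 (0.58). The top values of so many genes over 32 cells are selected maxima and are given as a description.

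The label of these cells was compared with marker lists of other kidney and blood cells. Pan-leukocyte genes (Ptprc, Cd74, Laptm5 and Coro1a) summed to 5005 to 78042 TPM per cell. Most of this was Cd74, with a mean of 31135 TPM beside 33257 TPM for the sum, while Ptprc ran from 0.12 to 1969 TPM. At 1 TPM, 32 of 32 cells held at least 2 of the 15 further macrophage genes. So did 44 of 87 type A, 19 of 74 principal, 6 of 19 proximal tubule and 2 of 23 type B cells. The summed macrophage genes had a median of 8073 TPM in the non-epithelial cells and of 5.58 TPM or less in each epithelial type. Cd163 and Vsig4, markers of some tissue macrophages, were below 1 TPM in each of the 32. At least 1 of 4 monocyte markers was at 1 TPM in 15 of the 32 cells, and at least 1 of 7 dendritic cell markers in 13. The B cell list was at that level in 8 cells, through Cd79b, while Cd79a and Ms4a1 were listed at 0. The T cell list was so in 6 cells, through Cd4 in 5 cells and Cd3d in 1, while Cd3e, Cd3g, Trac and Cd8a were listed at 0. Of the endothelial list, Emcn (up to 2.40 TPM) and Plvap (up to 2.25 TPM) reached 1 TPM in 1 cell each, and Pecam1, Kdr and Cdh5 in none. Of the stromal list, Col1a2 reached it in 1 cell (24.6 TPM), and Col1a1, Pdgfrb and Dcn in none. The neutrophil, NK cell and plasma cell lists each had a marker at 1 TPM in 1 cell, and the mast cell and haemoglobin lists in none. The non-epithelial cells thus held leukocyte and macrophage genes, together with monocyte or dendritic cell genes in some. Epithelial transcripts were present as well: the summed principal cell markers had a median of 59.8 TPM and the intercalated markers one of 180 TPM, and their part in the results was not tested.

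The 3 non-epithelial cells without a C1q chain at 10 TPM (cells 13, 19 and 32, with C1qb at 1.69, 1.28 and 0.30 TPM) differed in other genes. Those genes were picked for display after their values were seen. Cell 19 held the highest Lyz2 (33030 TPM) together with 15456 TPM of Ly6c2, 2235 TPM of Chil3, 3149 TPM of Il1b and 420 TPM of Csf1r, with Adgre1 at 0. Ly6c2 and Chil3 are genes of inflammatory monocytes. Of the other monocyte markers, Plac8 was at 5228 TPM in cell 19 but Ccr2 at 0. Cells 13 and 32 held 338 and 247 TPM of Xcr1, a receptor of cross-presenting dendritic cells. Flt3 was at 0.33 and 352 TPM in them, and Clec9a, another dendritic cell marker, at 33.6 and 261 TPM. These cells had Lyz2 at 57.6 and 949 TPM, but Csf1r at 0 and 0.02 TPM. They also held the monocyte markers Ccr2 (555 and 177 TPM) and Plac8 (590 and 3400 TPM). Cell 11 combined Xcr1 (167 TPM) and Flt3 (75.3 TPM) with 2122 TPM of C1qb. Clec9a was highest in cell 20 (659 TPM, beside 7502 TPM of C1qb). Ccr2 was also found in other cells with C1q, among them cell 4 (427 TPM, beside 1465 TPM of C1qb). The separation by C1q was therefore not complete.

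**Figure D3:**
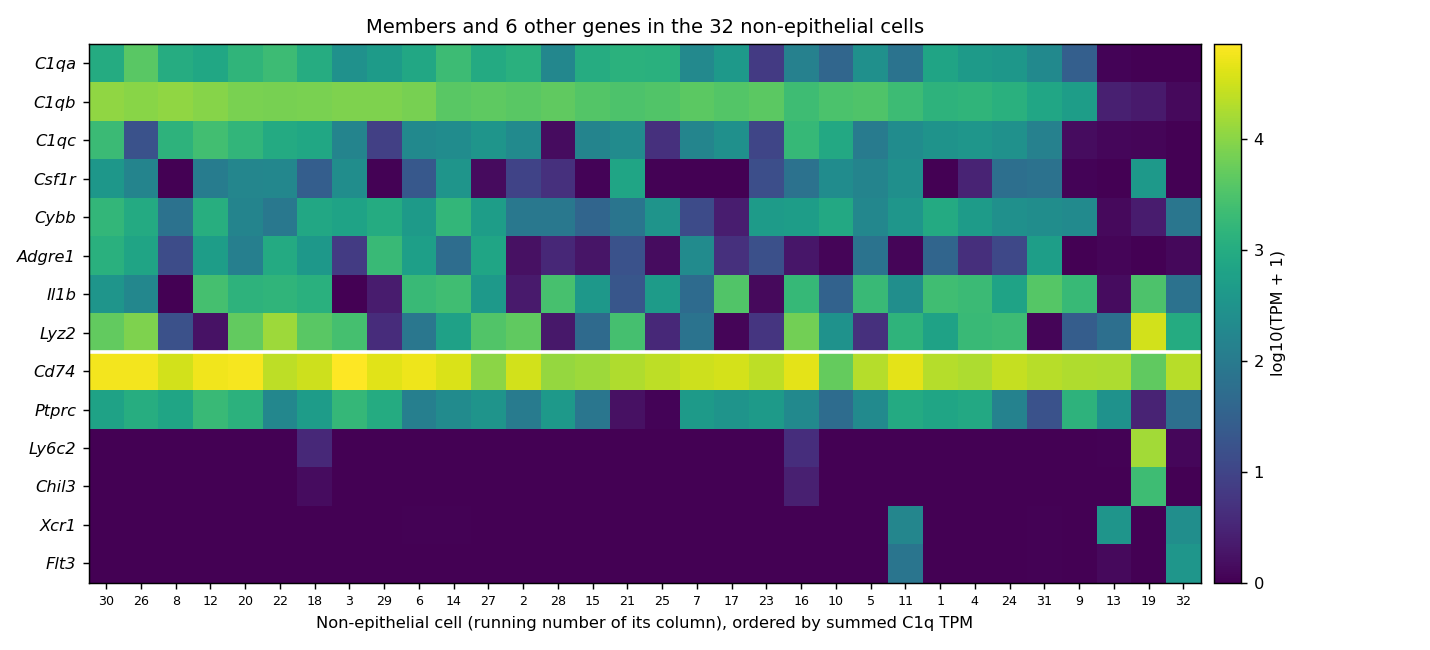
Rows are the 8 members and 6 other genes, columns the 32 non-epithelial cells ordered by the sum of C1qa, C1qb and C1qc, and colour is log10(TPM + 1). The 3 cells at the right end hold no C1q chain at 10 TPM, and among them cell 19 carries the highest Lyz2 with Ly6c2 and Chil3.

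Type A intercalated cells held low levels of several members. C1qb was at 1 TPM or more in 50 of 87 type A cells (57.5%, exact 95% interval 46.4% to 68.0%), but 46 of these were under 10 TPM. Lyz2 was at 1 TPM in 29 cells, Il1b in 27, C1qa in 11, Cybb in 6, C1qc and Csf1r in 5 each and Adgre1 in 1. The type B cells had C1qb at 1 TPM in 2 of 23 cells (8.70%, 1.07% to 28.0%), Il1b in 1 and the other 6 genes in none, which allows a share of up to 14.8% by the exact interval. Principal cells had C1qb and Il1b in 15 of 74 cells each and Lyz2 in 14. Proximal tubule cells had C1qb and Lyz2 in 6 of 19 cells each (31.6%, 12.6% to 56.6%) and Il1b in 4. They had Csf1r in 7 of 19 cells (36.8%, 16.3% to 61.6%), beside 5.75% of type A cells (1.89% to 12.9%).

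The 4 members detected most often in type A cells, C1qb, Lyz2, Il1b and C1qa, were in that order also the 4 with the highest mean in non-epithelial cells. Genes that were at least 10 times above the next type in non-epithelial cells were likewise detected more often where their mean was higher. All members but Csf1r are among these genes and were not taken out, so this is no separate comparison. The genes were chosen from these same values, by a rule that caps the epithelial mean in proportion to the non-epithelial one. Part of this rise is therefore fixed by the choice, and no conclusion is drawn from it. The 22 such genes with a non-epithelial mean of at least 1000 TPM were at 1 TPM in a median of 40.2% of type A, 23.7% of proximal tubule, 18.2% of principal and 4.35% of type B cells. The 131 genes between 100 and 1000 TPM were so in a median of 4.60%, 5.26%, 2.70% and 0%. Type A titles carried the sort label DBA + c-Kit (60) or c-Kit (25) in most cases, as did the non-epithelial ones (18 and 10), whereas 17 of 23 type B titles carried PNA. Proximal tubule titles carried DBA (8), DBA + c-Kit (9) or c-Kit (2), and principal cell titles DBA (37) or DBA + c-Kit (37). The part of sorting or of RNA from other cells in the low values was not tested.

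A few epithelial cells stood out with high values of several members. Type A cell 42 had 694 TPM of C1qb, 549 TPM of Adgre1, 288 TPM of Ptprc and 6459 TPM of the mast cell gene Cpa3. Principal cell 33 had 1027 TPM of Cybb, 116 TPM of C1qb, 83.0 TPM of Il1b and 78.2 TPM of Lyz2, beside 2653 TPM of the principal cell channel gene Aqp2. It held 2496 TPM of Cd74 and 249 TPM of Fcer1g, but only 0.59 TPM of Ptprc. These are the only 2 epithelial cells with 4 of the 8 genes at 10 TPM. Proximal tubule cells 2 and 8 shared 1 combination, with C1qa (14.8 and 12.6 TPM), Adgre1 (24.2 and 17.3 TPM) and Lyz2 (77.2 and 85.0 TPM) but no C1qb. Ptprc was at 0.72 and 0.09 TPM in them and Cd74 at 42.6 and 671 TPM, so high Ptprc was found in type A cell 42 alone of these 4.

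In sorted bulk samples a level depends both on how many cells of a type are present and on the RNA each holds, which cannot be told apart. GFP-positive and GFP-negative samples were compared with edgeR's quasi-likelihood test on 35530885 to 40815091 reads in genes per sample. The 4 general intercalated markers were all called higher with GFP. Among them is Atp6v1b1, the gene in the strain's name, which is therefore no separate check of the sort. All 8 members were lower in the GFP-positive samples at a Benjamini-Hochberg adjusted p under 0.05, where 17.3% of the 15671 genes tested were called lower. Since the 8 genes were chosen with results of this comparison known, their count is a description.

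C1qa had 350 and 70 reads in the GFP-negative samples and 0 and 1 in the GFP-positive samples. Over both samples the ratio of CPM (reads scaled to library size) was 410, with an exact 95% counting interval of 73.3 to 16249. That interval covers counting error of the pooled reads only and leaves out the spread between samples. The log2 difference of C1qa was -8.27 ± 1.19 (SE, edgeR adjusted p = 0.00106). C1qb had 27.7 and 10.2 CPM in GFP-negative and 0.887 and 0.95 CPM in GFP-positive samples, and C1qc 18.7 and 7.05 against 0.591 and 0.712 CPM. The groups did not overlap for any C1q chain, and the log2 difference was -4.37 ± 0.52 (SE, edgeR adjusted p = 0.000404) for C1qb and -4.30 ± 0.56 (adjusted p = 0.000592) for C1qc. Non-overlap in this direction occurred in 34.4% of all genes tested.

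Csf1r had the smallest difference of the 8. Its values were 101 and 74.5 CPM in GFP-negative and 18.7 and 13.1 CPM in GFP-positive samples, a log2 difference of -2.46 ± 0.25 (edgeR adjusted p = 0.000176). Adgre1 had 27.6 and 8.13 CPM against 0.994 and 1.03 CPM, a log2 difference of -4.14 ± 0.59 (edgeR adjusted p = 0.000979). Among the effector genes, Il1b had 309 and 98.7 CPM against 13.6 and 12.2 CPM (log2 difference -3.98 ± 0.48). Cybb had 110 and 31.0 CPM against 4.62 and 3.14 CPM (-4.19 ± 0.56), and Lyz2 had 451 and 156 CPM against 14.2 and 36.4 CPM (-3.59 ± 0.56). The edgeR adjusted p was 0.000409 for Il1b, 0.000733 for Cybb and 0.00168 for Lyz2.

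The GFP-negative replicates were unlike each other in these genes. Replicate 1 was above replicate 2 in all 8 members, by 1.35 times for Csf1r, 2.72 times for C1qb and 4.00 times for C1qa, and the 8 summed to 1053 and 387 CPM. Ptprc differed by 3.61 times in the same direction, and the pan-leukocyte genes summed to 708 and 327 CPM, of which Cd74 made up 581 and 286 CPM. The endothelial markers also differed (345 and 150 CPM), while the proximal tubule markers were alike (14879 and 15400 CPM). The members' median log2 difference was -4.16 (0.02 over all genes tested), and -3.00 without GFP-negative replicate 1, where all 8 stayed called lower.

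Genes of the surrounding pathways were mostly lower in the GFP-positive samples too. In the complement list 10 of 13 tested genes were lower and none higher, led by Itgb2 (log2 difference -4.10), a chain of complement receptor 3, and C3ar1 (-3.38), the C3a receptor. Of 5 NADPH oxidase partners 4 were lower, led by Ncf4 (-3.42) and Cyba (-2.67). In the macrophage list 11 of 13 were lower, led by Cx3cr1 (-3.91) and by Lyz1, which had a mean of 1.29 CPM in the GFP-negative samples and no reads in the GFP-positive ones. The interleukin-1 list went both ways, with 5 of 9 lower, among them Il1r2 (-3.87), the decoy receptor, and Il1rn (-3.62), the receptor antagonist. Il1r1, the signalling receptor of interleukin-1, was higher in the GFP-positive samples (77.5 ± 18.2 against 11.7 ± 2.15 CPM, SD, n = 2 each), as was Pycard (log2 difference 1.77), an inflammasome adaptor. Of the CSF1 axis only Tyrobp (-3.83) was called among 6 genes, and the ligand Csf1 was at 9.65 and 10.1 CPM on average.

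Markers of several other cell types were lower in the same GFP-positive samples. Neutrophil markers were lower in 4 of 4 genes tested (median log2 difference -5.67), with sums of 51.1 and 12.6 CPM in the GFP-negative and 1.40 and 1.03 CPM in the GFP-positive samples. Pan-leukocyte genes were lower in 4 of 4 (-3.31), monocyte markers in 2 of 3 (-3.55), T cell markers in 2 of 3 (-3.06) and dendritic cell markers in 2 of 7 (-1.88). Of 4 B cell markers none was called, and of 3 plasma cell markers 1 was lower and 1 higher. Endothelial (5 of 5), stromal (3 of 4) and proximal tubule markers (5 of 5) were lower as well. Neutrophils and monocytes also express Lyz2 and Il1b, and the part of these cells in the results was not tested.

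The c-Kit and DBA samples carried the sorting markers as labelled, with Kit at 756 against 18.2 TPM on average and Aqp2 at 1304 against 12598 TPM. Limma on log2(TPM + 1) called 7 of the 8 members lower in the c-Kit samples, where 28.1% of the 14341 genes tested were called lower. The exception was Lyz2. The groups did not overlap for these 7 genes, as for 46.3% of all genes in that direction.

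The C1q chains were lower by nearly the same factor. C1qa had 667 and 756 TPM in the DBA samples and 91.6 and 115 TPM in the c-Kit samples, C1qb 1445 and 1499 against 232 and 262 TPM, and C1qc 969 and 977 against 149 and 154 TPM. The ratio of means was 6.88, 5.96 and 6.42, with log2 differences of -2.78 ± 0.12, -2.57 ± 0.07 and -2.68 ± 0.06 (SE). The limma adjusted p was 1.27e-05, 3.95e-06 and 1.37e-06. Csf1r (313 and 330 against 54.2 and 56.4 TPM) and Adgre1 (129 and 131 against 19.6 and 26.7 TPM) had similar ratios of means, 5.81 and 5.61.

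Cybb and Il1b were lower by less. Cybb had 113 and 130 TPM in DBA and 31.1 and 36.6 TPM in c-Kit samples, a log2 difference of -1.81 ± 0.11 (limma adjusted p = 4.45e-05). Il1b had 122 and 139 against 41.3 and 55.6 TPM, a difference of -1.42 ± 0.14 (limma adjusted p = 0.000402). Lyz2 had 713 and 829 TPM in DBA and 779 and 898 TPM in c-Kit samples, so the groups overlapped, and the log2 difference was 0.12 ± 0.10 (limma adjusted p = 0.36). The members' median log2 difference was -2.49, beside -0.11 over all genes tested.

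**Figure D4:**
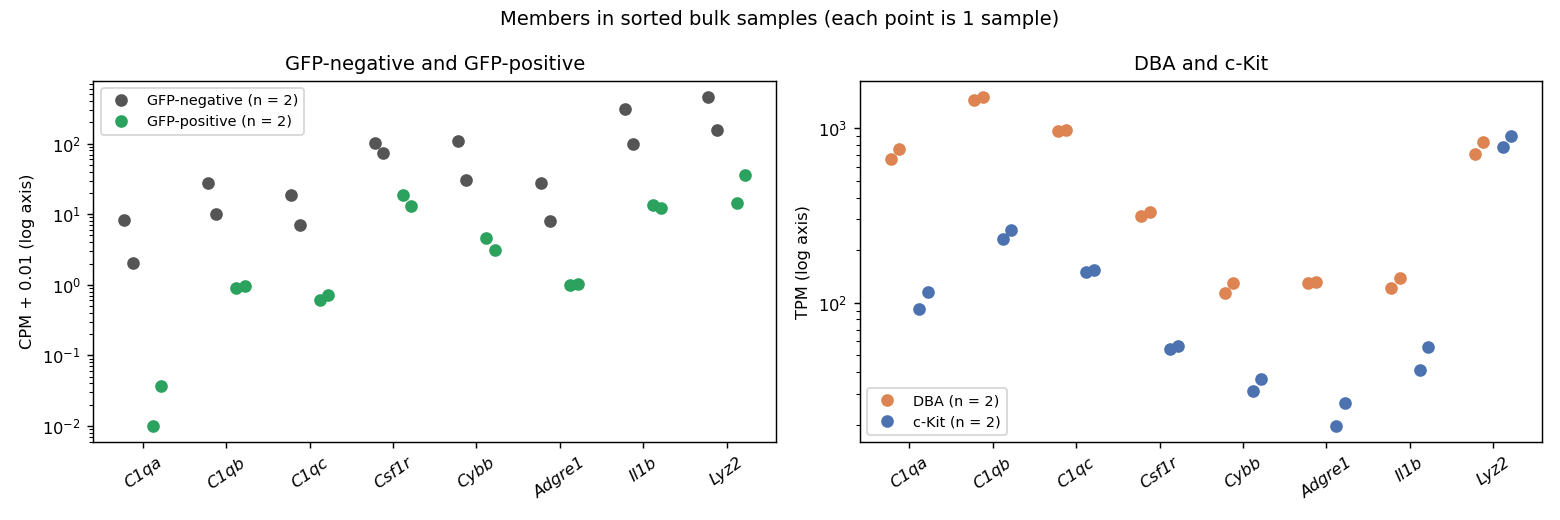
Points are single samples on a log axis, in CPM plus 0.01 for the GFP samples (left) and in TPM for the DBA and c-Kit samples (right). All 8 genes are lower in the GFP-positive samples, and in the c-Kit samples Lyz2 overlaps with DBA while the other 7 lie below.

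Relative to C1qb, Lyz2 therefore stood at 3.36 and 3.43 in the c-Kit samples and at 0.493 and 0.553 in the DBA samples (ratio of TPM). Lyz1, the neighbouring copy, was higher in the c-Kit samples, with 16.0 ± 7.74 against 0.11 ± 0.01 TPM (SD, n = 2 each) and a log2 difference of 3.86. The leukocyte gene Ptprc was itself lower in c-Kit samples (35.8 against 73.3 TPM on average). Per unit of Ptprc, C1qb was at 6.15 and 7.72 in c-Kit and 19.9 and 20.3 in DBA samples, and Lyz2 at 20.7 and 26.4 against 9.79 and 11.2.

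Monocyte and neutrophil markers went the other way. All 4 monocyte genes were called higher in the c-Kit samples, where they summed to 155 and 172 TPM against 21.8 and 24.6 TPM in DBA. Among them Ly6c2 stood at 37.3 ± 0.80 against 1.29 ± 0.21 TPM (SD, n = 2 each). Of 4 neutrophil genes tested 3 were higher, of 7 dendritic cell genes 3 were higher and 1 lower, and of 4 mast cell genes 3 were higher and 1 lower. The neutrophil markers summed to 58.8 and 79.9 TPM in c-Kit and 6.50 and 8.55 TPM in DBA samples. The part of these cells in the Lyz2 value was not tested.

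In 4 of the 5 pathway lists no gene was called higher in the c-Kit samples. Of 13 complement genes 12 were lower, led by C3 (6.02 ± 0.27 against 60.9 ± 3.30 TPM), the central complement component, and C4b (log2 difference -2.95). All 5 oxidase partners were lower, among them Ncf1 (-1.25), and 5 of 6 genes of the CSF1 axis, led by Csf1 (-1.69) and Tyrobp (-1.47). Of 8 interleukin-1 genes 6 were lower, led by Casp1 (-1.50), the interleukin-1 beta converting enzyme, and Tnf (-1.09). In the macrophage list 13 of 14 were lower, led by Mrc1 (-3.21), the mannose receptor, and Cx3cr1 (-2.46), and only Lyz1 was higher. Principal cell markers (6 of 6), proximal tubule markers (5 of 5), pan-leukocyte genes (4 of 4) and endothelial markers (3 of 5) were lower in the same samples. The median log2 difference was -2.87 for the principal cell and -1.29 for the pan-leukocyte list. Type A, type B and general intercalated markers were higher in 4 of 4 genes each, and plasma cell markers in 3 of 3. The part of these cells in the fall of the pathway lists was not tested.

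Single microdissected tubules also held the genes, with mean TPM below those of the c-Kit and DBA samples. The names of their columns begin with 1 of 7 prefixes (m1 to m7), 7 among the CCD and 6 among the cTAL, which no label explains. If a prefix marks a mouse, tubules of 1 prefix are repeats from 1 animal and p-values over tubules are too small. Limma called none of the 6 members whose mean reached 1 TPM, and none had an unadjusted p under 0.05 over the tubules, where 18.7% of the 13520 genes tested were called in either direction. C1qb ranged from 0.06 TPM through a median of 32.0 to 58.0 TPM in the 11 CCD and from 0.10 through 25.2 to 122 TPM in the 8 cTAL tubules, a log2 difference of 0.73 ± 1.01 (SE, adjusted p = 0.68). C1qa had medians of 11.3 TPM in CCD (0 to 25.0) and 11.4 TPM in cTAL (0 to 39.1), and C1qc medians of 20.8 TPM (0.11 to 33.7) and 16.5 TPM (0 to 41.0). With 1 mean per prefix and kind in place of the tubules, C1qb differed by 1.27 (limma adjusted p = 0.55), and again no member was called. The groups overlapped over most of their range for each chain. The standard errors of the differences ran from 0.55 to 1.01 on the log2 scale for the 6 genes tested.

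The other members were mostly lower than the C1q chains. Lyz2 had a median of 6.82 TPM in CCD and 11.4 TPM in cTAL, with a highest value of 34.9 TPM. Csf1r had medians of 3.86 and 6.29 TPM, and Cybb medians of 2.66 and 0.01 TPM. Adgre1 reached 1 TPM in 2 CCD and 1 cTAL tubule, and Il1b in 2 CCD, while it was listed at 0 in all 8 cTAL. Both genes had means under 1 TPM and were not tested.

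**Figure D5:**
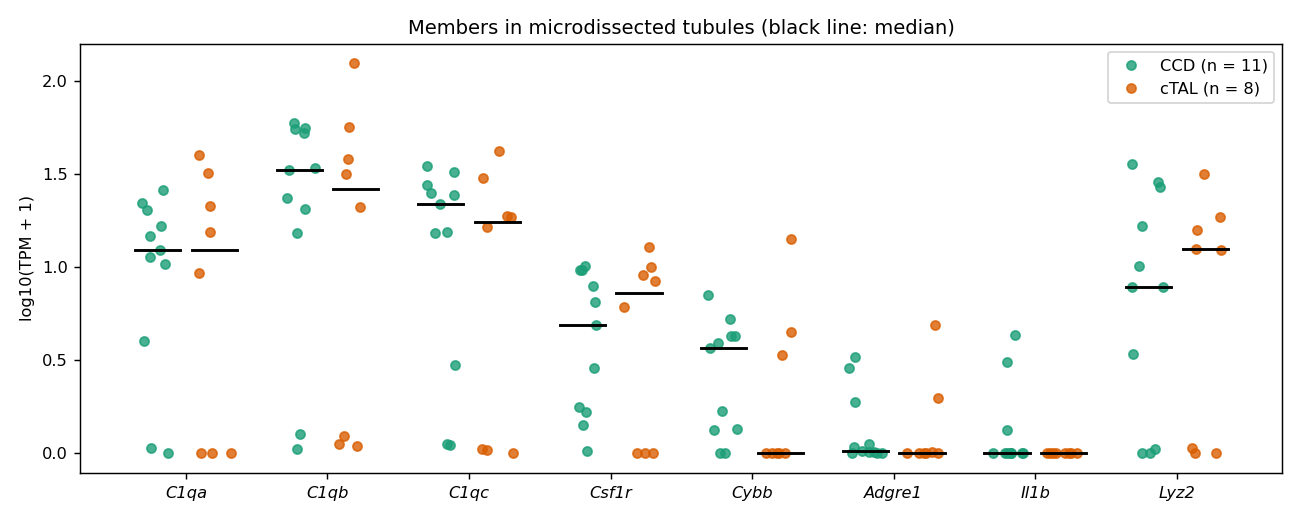
Each point is 1 tubule, the vertical axis is log10(TPM + 1) and the black line the median of the 11 CCD or 8 cTAL tubules. Values of each C1q chain spread from near 0 to 58.0 TPM or less in CCD and to 122 TPM or less in cTAL, and Il1b is at 0 in all cTAL.

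Within a tubule the chains of C1q were mostly present or absent together. At 1 TPM, 12 of 19 tubules held all 3 chains (8 of 11 CCD and 4 of 8 cTAL), 2 held none, 4 held 1 and 1 held 2. The 4 cTAL with all chains carry the prefixes m6 and m7 (2 each), and no cTAL of another prefix held all 3, whereas the 8 CCD were spread over m1 and m3 to m7. All 8 members reached 1 TPM in 2 CCD tubules, which were also the 2 with Il1b and Adgre1. At the other end, 1 CCD tubule had no more than 0.11 TPM of each C1q chain and 2.91 TPM of Cybb, and 1 cTAL tubule had 30.7 TPM of Lyz2 with no C1q chain above 0.24 TPM. The spread between tubules of 1 kind was thus larger than the difference between kinds.

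Some pathway genes did differ between tubule kinds. Il1r1 was higher in CCD (21.1 ± 11.3 against 0.16 ± 0.31 TPM, SD, n = 11 and 8), with a limma log2 difference of 4.08 ± 0.39 and adjusted p = 2.75e-08, and Pycard was higher by 0.89 on the log2 scale. The ligands of the Csf1r receptor went in opposite directions. Csf1 was higher in CCD (11.6 ± 6.37 against 0.80 ± 1.13 TPM, log2 difference 2.68, limma adjusted p = 0.000558) and Il34 lower (16.6 ± 19.0 against 57.2 ± 24.7 TPM, -2.30, adjusted p = 0.00797). In the complement (5 tested), oxidase (2 tested) and macrophage (7 tested) lists no gene was called by limma. With 1 mean per prefix and kind these 4 genes stayed called, with limma adjusted p = 1.05e-05 for Il1r1, 0.000708 for Csf1, 0.0119 for Pycard and 0.044 for Il34.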

How the data were processed

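The members and gene lists were chosen with earlier results of these data known. The 8 members are named throughout. Of each pathway list, the 2 called genes per direction that differed most in a bulk comparison are named, and for each profile the 3 genes of highest Spearman's rho. Values of some list genes are not reported here. Other marker genes named were picked after their values were seen.

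The authors deposited TPM values for single cells, c-Kit and DBA samples and tubules. The submitters' processing notes name STAR 2.5.1b, RSEM 1.2.31, Seurat and build GRCm38.p5, without saying for which table. Raw counts of reads per gene from HTSeq-count and RPKM values on RefSeq genes of mm10 were deposited for the GFP samples, per the file headers and names. Whether counting used strand is not given here. Reads in no gene made up 66.7% to 72.8% of listed reads and were left out. TPM keeps no depth, so no limit of detection in reads can be given for those samples. The tubule table's unit was read from its sums (999999.1 to 1000000.5). Number of per-sample columns not used: 0.

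Counts were tested with edgeR 4.0.16 in R 4.3.3 (TMM, filterByExpr, quasi-likelihood). TPM values were tested with limma 3.58.1 on log2(TPM + 1) with a variance trend, for genes whose mean reached 1 TPM. Adjusted p-values are Benjamini-Hochberg over all genes tested, called under 0.05. Folds on the log2(TPM + 1) scale understate changes of low genes. The fits were tested on simulated data. Single-cell shares use exact Clopper-Pearson intervals (scipy 1.17.1). All cells were kept with the authors' types, and no doublet caller was run since TPM are not molecule counts. Column numbers of cells are not stated to be those of the titles, so sort labels were not assigned to columns. Alternatives were DESeq2 1.42.0 and its size factors, filters, RPKM, pseudocounts of 0.1 and 5, quantile normalization, no trend, weights per sample, a block for the replicate number or the experiment, dropping each bulk sample, and other detection levels.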

Additional observations from a re-analysis of the deposited data

Results flagged for a closer look

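In 3 of the 7 members with any signal in the 8 cTAL tubules, 1 tubule lay far above the others by Dixon's ratio. About 1 in 20 groups is marked so by chance if values are normally distributed. TPM values of these tubules are not, with Adgre1 listed at 0 in 5 of 8, so the rate by chance is not known here. C1qb had 122 TPM in the first cTAL with column prefix m6, and the next value was 55.6 TPM. Cybb had 13.1 TPM in the other cTAL with prefix m6, and the next was 3.46 TPM. Adgre1 had 3.90 TPM in the first cTAL with prefix m7, and the next was 0.99 TPM. These are 3 different tubules.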

How the results depend on the processing

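In the GFP comparison all 8 members kept their direction under each of the 11 alternatives, and 6 were called with limma on RPKM, where Cybb (-2.82, adjusted p = 0.083) and Adgre1 (-2.56, adjusted p = 0.062) were not. RPKM with limma called 1639 genes in all, against 5101 with edgeR. The RPKM columns name a first and a second experiment, each with 1 GFP-positive and 1 GFP-negative sample. With that experiment as a block, added after seeing the data, limma on RPKM called 2157 genes and 7 members, and Adgre1 (adjusted p = 0.068) was not called. Leaving out single samples gave 3616 to 4211 genes and 8 members each time. With the replicate number as a block edgeR called 5897 genes and 8 members. In the c-Kit and DBA comparison 7 members were called under each alternative, the block included (6271 genes, against 6348). Leaving out single samples gave 3458 to 5701 genes. Without DBA replicate 1 there were 3600 genes, and without DBA replicate 2 there were 3458. Deviations of same-numbered samples correlated at 0.168 (GFP) and 0.026 (c-Kit and DBA), with 2 pairs each. The count columns are not stated to be numbered by experiment, and nothing ties the numbers of the c-Kit and DBA samples to each other, so the fits without a block are given as the result.

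For CCD and cTAL no member was called under any alternative. Sample weights called 4401 genes against 2526. The sign of members near 0 depended on the setting: Csf1r (-0.04) was 0.53 with a pseudocount of 0.1, and quantile normalization gave -0.019 for Cybb (0.38) and -0.11 for Lyz2 (0.15). Quantile normalization moved the median of all genes from 0.31 to -0.03 and the split of calls from 1782 higher and 744 lower to 1221 and 1244. In the c-Kit comparison the split went from 2315 and 4033 to 3055 and 3072. After seeing the data, the column-name prefix (m1 to m7) was added as a block, with -0.0084 for Lyz2 and 2588 genes, and as a mean per prefix and kind, with 0.28 for Csf1r and 1796 genes. The causes were not tested. Epithelial cells with 4 or more members numbered 98 above 0 TPM, 13 at 1 TPM and 2 at 10 TPM, and non-epithelial cells with all 3 C1q chains 30, 27 and 24.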
